A study of Rattus norvegicus with 18 samples.

Results

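Ion channel genes were followed in lungs of rats that had breathed cigarette smoke. The set holds every gene whose symbol starts with Kcn, Scn, Cacn, Clcn, Trpc, Trpm or Trpv and that had a value in at least 12 of the 18 samples, which left 63 genes of 94 such symbols on the array and of 4616 named genes in all. The smoke groups were the high dose, 600 µg total particulate matter (TPM) per litre, and the low dose, 300 µg TPM per litre, and the control was conditioned fresh air. Rats were exposed through the nose alone, in 2 sessions of 1 hour a day on 5 days a week, for 2, 7 or 13 weeks. Whole lungs were taken once the last session lay 2, 6 or 20 hours back. Each dose has 1 sample for each of the 9 combinations of weeks and hours. A sample is a 2-colour array measurement, the log2 ratio of RNA pooled from 4 smoke-exposed rats (Cy5) over RNA pooled from 4 fresh-air rats (Cy3). Both doses of a combination were set against the same fresh-air pool, and no condition had a second sample. The labels do not name strain, sex or age. A value of 0 is the air level, and no value tells how abundant an mRNA is.

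Ion channels are membrane proteins that let chosen ions pass down their gradients. Voltage-gated potassium, sodium and calcium channels open when the membrane voltage changes, and are best known from nerve and muscle. In the lung, epithelial sodium and chloride channels with basolateral potassium channels set the depth of the airway and alveolar liquid. Potassium and calcium channels in smooth muscle set the tone of vessels and airways, and transient receptor potential (TRP) channels admit calcium and sodium in response to chemical, thermal or mechanical stimuli.

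The 63 genes fall into 13 classes by their symbols. Potassium channels make up 28 of the members, with 13 pore-forming (alpha) subunits of voltage-gated channels, 7 auxiliary subunits, 5 inward rectifiers and 3 channels of the 2-pore type. There are 5 alpha and 11 auxiliary subunits of calcium channels, 2 alpha subunits and 1 beta subunit of voltage-gated sodium channels, and the 3 subunits of the epithelial sodium channel. The rest are 3 chloride channels or transporters of the Clcn family, 3 Trpc, 3 Trpm and 4 Trpv genes. Of the 94 channel symbols 67.0% reached the 12 values, against 89.5% of all named genes. Values were present in 75.5% of the high-dose and 66.8% of the low-dose cells of these symbols, against 92.7% of high-dose and 89.4% of low-dose cells over all named genes. Channel genes were thus missing more often than other genes, and more often at the low dose. Just inside the minimum stood Cacna1h and Cacng1 with 12 values each, and just outside it Kcnb2 and Kcns1 with 11 and Kcnj10 and Kcnk13 with 10. Kcnb2 averaged -0.05 at the high dose and -0.13 at the low dose, and Kcns1 -0.13 at the high dose and -0.06 at the low dose. Kcnj10 averaged 0.02 at the high dose and -0.07 at the low dose, and Kcnk13 -0.14 at the high dose and -0.07 at the low dose.

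Of the 63 genes 42 had a value in every sample. A gene was tested if 6 or more of the 9 combinations held a value at each dose, which 57 members met. Cacna1c, Cacna1h, Cacng1, Kcnab1, Kcnh2 and Trpc1 did not, and Kcnk3 could not be tested over time. Errors are standard errors (SE) from limma, fitted across all genes. A gene is called where its p, adjusted by the Benjamini-Hochberg method over all genes tested, is under 0.05. The spread behind these tests is that between combinations of weeks and hours, which holds pool error and change over time together. All smoke samples carried Cy5, so any dye bias of a probe that is the same on all arrays is part of these ratios.

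At the high dose, 6 channel genes rose and 3 fell. Of the tested members the calcium-permeable channel Trpv2 rose most, at 1.75 times the air level. The potassium channel genes Kcnj13, Kcnj15, Kcnk6 and Kcnq3 and the auxiliary subunit gene Kcne3 rose less. Clcn3 fell to 0.85 times air, and Kcnk9 and Kcns3 to 0.88 times air. The 9 called genes are 15.8% of the 57 tested members, against 17.2% of all 4016 genes tested, a share near that of other genes and therefore no result about channel genes as a group. Of all genes 9.56% were called higher and 7.64% lower. By unadjusted p, 17 members were under 0.05, and so were 31% of all genes. The exact sign-flip permutation test takes only genes with every high-dose value. It called 2 of 46 such members, Trpv2 and Clcn3, and 8.57% of all such genes. Kcnj13, Kcnj15 and Kcnq3 lacked a value and were not in it. The median of the members was -0.01 and that of all genes 0.00 on the log2 scale. Disregarding sign, the medians were 0.07 and 0.09, and 4 of 57 members against 443 of 4016 genes had a mean over 0.25 from air.

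Promoters are shown for Trpv2 and Kcnj13, the genes called at both doses, and for Clcn3, the member below air in every high-dose sample. They are the 250 bases before the gene start on the gene's strand, 5′ to 3′, from RefSeq (assembly GRCr8), where 45 of the 63 members had an entry. They stand at chr10:47771973-47772222 (plus strand) for Trpv2, chr9:95518987-95519236 (minus strand) for Kcnj13 and chr16:34137754-34138003 (plus strand) for Clcn3. Capitals mark matches to 4 motifs on either strand, which may overlap each other.
Trpv2: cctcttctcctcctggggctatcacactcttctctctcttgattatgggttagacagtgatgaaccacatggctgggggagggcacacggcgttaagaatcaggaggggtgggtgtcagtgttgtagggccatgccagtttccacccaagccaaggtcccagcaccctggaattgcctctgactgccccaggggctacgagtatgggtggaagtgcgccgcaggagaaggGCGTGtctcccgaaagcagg
Kcnj13: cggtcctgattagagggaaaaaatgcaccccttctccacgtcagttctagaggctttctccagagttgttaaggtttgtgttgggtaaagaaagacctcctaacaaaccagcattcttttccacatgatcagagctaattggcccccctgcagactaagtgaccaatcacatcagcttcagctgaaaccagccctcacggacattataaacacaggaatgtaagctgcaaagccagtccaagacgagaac
Clcn3: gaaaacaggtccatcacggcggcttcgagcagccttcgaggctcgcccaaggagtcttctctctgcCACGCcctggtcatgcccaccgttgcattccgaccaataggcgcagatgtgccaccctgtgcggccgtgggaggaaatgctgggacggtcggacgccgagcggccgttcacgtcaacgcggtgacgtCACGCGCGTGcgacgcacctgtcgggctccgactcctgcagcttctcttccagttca
The motifs were GCGTG, the core bound by the aryl hydrocarbon receptor, TGACNNNGC, the core of the antioxidant response element, TGANTCA, the AP-1 site, and CACGTG, the E-box. GCGTG matched 1 time in Trpv2, 0 times in Kcnj13 and 3 times in Clcn3, and the other 3 motifs were in none of these windows. Of the 45 member promoters 18 held GCGTG (40.0%), against 27.2% of all 27457 promoters of this length in the table. Their median GC content was 64.4%, against 52.0% over all promoters, and GCGTG is itself rich in G and C. The other motifs stood in 4, 2 and 3 member promoters in the order given, and in 10.2%, 6.36% and 5.80% of all promoters. The GC-rich Sp1 box, GGGCGG, was also searched but is not marked. It stood in 23 member promoters (51.1%), against 32.4% of all promoters.

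**Figure D1:**
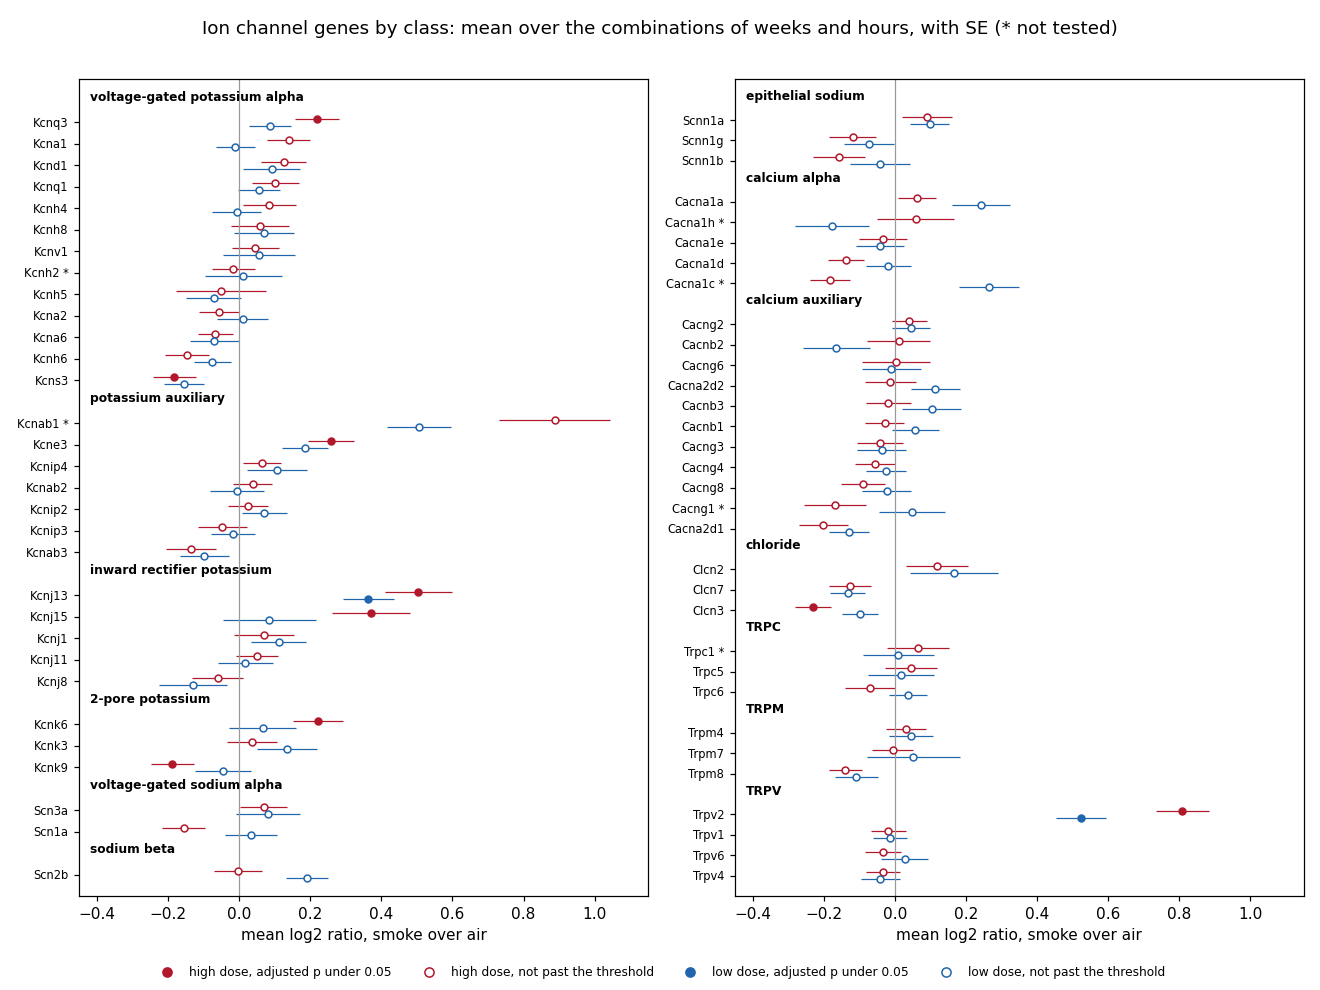
Mean log2 ratio of smoke over air for all 63 genes by class, with the high dose above the low dose for each gene, over the combinations that had a value. Bars are SE (limma, or from the sample SD for the 6 untested genes with an asterisk) and filled points passed the threshold; most genes sit within 0.2 of the air level, and Trpv2 and the untested Kcnab1 stand furthest from it.

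Of the 9 tested TRP channel genes, Trpv2 was called and the other 8 were not. Of all genes tested 17.2% were called at the high dose and 4.96% at the low dose. The count is thus no result about TRP genes as a group. Trpv2 is a cation channel of the vanilloid subfamily that admits calcium, and in mice it takes part in phagocytosis by macrophages. Its log2 ratio at the high dose had a lowest value of 0.46, a median of 0.87 and a highest value of 1.12. The low-dose samples had a lowest value of 0.18, a median of 0.55 and a highest of 0.82. All 18 samples lay above air, and the ranges of the doses overlapped. The mean was 0.81 ± 0.07 at the high dose (n = 9, limma adjusted p = 5.95e-06) and 0.52 ± 0.07 at the low dose, 1.44 times air (n = 9, adjusted p = 7.01e-04). Of the 42 members with all values, Trpv2 was the 1 above air in every high-dose sample, where 5.31% of all such genes were. In whole lung, more cells that express a gene and more of its RNA per cell cannot be told apart.

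The other Trpv genes stayed within 0.05 of the air level in their means. Trpv4, a channel opened by swelling and stretch in endothelium and epithelium, averaged -0.03 ± 0.05 at the high dose and -0.04 ± 0.05 at the low dose. Trpv1, the capsaicin receptor of sensory nerves, averaged -0.02 ± 0.05 at the high dose and -0.01 ± 0.05 at the low dose. The calcium-selective Trpv6 averaged -0.03 ± 0.05 at the high dose and 0.03 ± 0.07 at the low dose. Trpv1 was read by 3 probes and Trpv4 by 2, with high-dose probe means between -0.05 and -0.01. Among Trpm genes, the cold and menthol receptor Trpm8 averaged -0.14 ± 0.05 (below air in 8 of 9 high-dose samples, adjusted p = 0.057) and -0.11 ± 0.06 at the low dose. The magnesium-permeable channel kinase Trpm7 averaged -0.01 ± 0.06 at the high dose and 0.05 ± 0.13 at the low dose. The calcium-activated Trpm4 averaged 0.03 ± 0.06 at the high dose and 0.04 ± 0.06 at the low dose. Trpc6, which diacylglycerol opens in vascular smooth muscle, averaged -0.07 ± 0.07 at the high dose and 0.04 ± 0.05 at the low dose. Trpc5 averaged 0.04 ± 0.07 at the high dose and 0.02 ± 0.09 at the low dose. None of these passed the threshold. The untested Trpc1 had means of 0.06 at the high dose and 0.01 at the low dose (n = 7 and 6).

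Most macrophage markers lay on the same side of air as Trpv2. Of 10 listed macrophage genes 9 were on the array and tested, and 7 rose and 2 fell at the high dose, while 6 rose and 1 fell at the low dose. The lysosomal glycoprotein Cd68 averaged 1.12 ± 0.10 at the high dose and 0.76 ± 0.06 at the low dose. The surface receptor Adgre1 averaged -0.72 ± 0.06 at the high dose and -0.45 ± 0.07 at the low dose. The growth factor receptor Csf1r averaged -0.19 ± 0.06 at the high dose and -0.14 ± 0.06 at the low dose. These 2 defining markers thus lay on the other side of air from Trpv2. The mean of the 9 genes lay between 0.313 and 0.753 in high-dose samples and between 0.216 and 0.47 in low-dose samples. At the high dose the samples of 2 weeks at 2 and at 20 hours were lowest in both measures, with 0.46 for Trpv2 in each and 0.318 and 0.313 for the marker mean. At the low dose the same combinations had 0.20 and 0.18 for Trpv2 and 0.216 in each for the markers. The highest values did not coincide. At the high dose Trpv2 was highest at 7 weeks and 20 hours (1.12), where the marker mean was 0.579. The marker mean was highest at 7 weeks and 6 hours (0.753), where Trpv2 stood at 0.87. The part of macrophage number in the Trpv2 values was not tested.

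**Figure D2:**
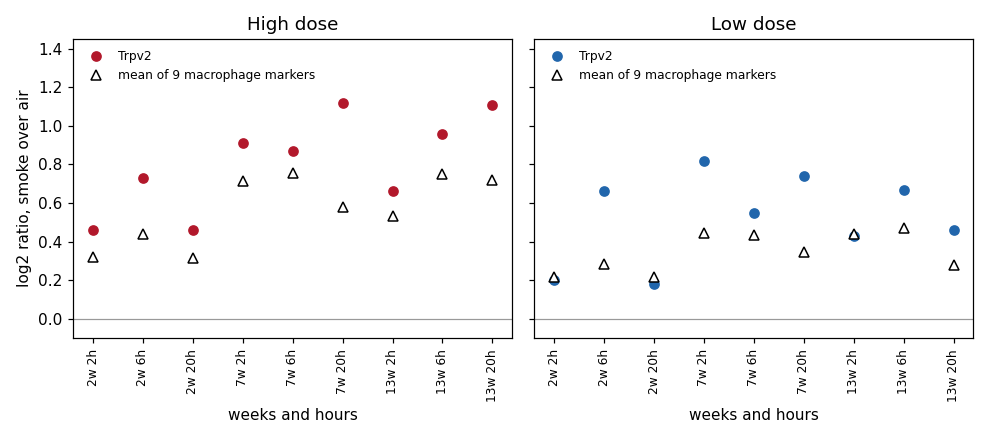
Log2 ratio of smoke over air for Trpv2 (filled circles) and the mean of 9 macrophage markers (open triangles) in each sample, high dose left and low dose right, over weeks (w) and hours (h). Every point lies above air, and in both panels the samples of 2 weeks at 2 and 20 hours hold the lowest values of both.

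Inward rectifiers carry potassium more readily into than out of the cell and hold the resting voltage. Kcnj13 (Kir7.1), known from ion-transporting epithelia such as the choroid plexus, had values from 0.08 to 0.98 at the high dose with a median of 0.46. Low-dose values ran from 0.12 to 0.69 with a median of 0.30. All 16 values it had were above air, and the ranges overlapped. It averaged 0.50 ± 0.09 at the high dose (n = 8, limma adjusted p = 0.0033) and 0.36 ± 0.07 at the low dose (n = 8, adjusted p = 0.0095), or 1.42 times air at the high dose and 1.29 times air at the low dose. Its promoter window held none of the 4 motifs. Kcnj15 (Kir4.2) had a lowest value of -0.29, a median of 0.47 and a highest value of 0.89 at the high dose, against -0.69, 0.11 and 0.54 at the low dose. Its high-dose mean was 0.37 ± 0.11 (above air in 6 of 8 samples, adjusted p = 0.036), and its low-dose mean of 0.08 ± 0.13 did not pass (adjusted p = 0.79). Both high-dose values under air were 6 hour samples.

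Kcnj8 and Kcnj11 form the pores of ATP-sensitive potassium channels, Kcnj8 mainly in vascular smooth muscle. Kcnj8 averaged -0.06 ± 0.07 at the high dose and -0.13 ± 0.09 at the low dose, and Kcnj11 0.05 ± 0.06 at the high dose and 0.02 ± 0.08 at the low dose. Neither passed. Their partner subunits are the sulphonylurea receptors Abcc9 and Abcc8, no members here. Abcc9 rose at the high dose (0.49 ± 0.15, adjusted p = 0.044) and stood at 0.18 ± 0.14 at the low dose. Abcc8 stood at 0.13 ± 0.06 at the high dose and 0.04 ± 0.10 at the low dose. The fifth inward rectifier, the kidney channel Kcnj1, averaged 0.07 ± 0.08 at the high dose and 0.11 ± 0.08 at the low dose.

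The 2-pore channels carry background potassium currents. Kcnk6 (TWIK-2) ranged from -0.17 to 0.53 with a median of 0.15 at the high dose, against -0.40 to 0.63 with a median of 0.07 at the low dose. It was above air in 8 of 9 high-dose and 6 of 9 low-dose samples. Its high-dose mean of 0.22 ± 0.07 passed (limma adjusted p = 0.046), and its low-dose mean of 0.07 ± 0.09 did not. Kcnk9 (TASK-3) ranged from -0.47 to 0.08 with a median of -0.12 at the high dose, against -0.56 to 0.32 with a median of 0.03 at the low dose. It was below air in 8 of 9 high-dose samples, with a mean of -0.19 ± 0.06 (adjusted p = 0.044), and averaged -0.05 ± 0.08 at the low dose. Kcnk3 (TASK-1), a channel of pulmonary artery smooth muscle, averaged 0.04 ± 0.07 at the high dose and 0.13 ± 0.08 at the low dose (n = 7 each) and did not pass.

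Of the 12 tested alpha subunits of voltage-gated potassium channels, 1 rose and 1 fell at the high dose. That is 16.7% of the class, near the 17.2% of all genes tested, and no result about the class. Kcnq3, a subunit of the neuronal M-current channel, ranged from 0.04 to 0.51 at the high dose (median 0.16) and from -0.09 to 0.38 at the low dose (median 0.03). All 8 high-dose values lay above air, with a mean of 0.22 ± 0.06 (limma adjusted p = 0.028). The low-dose mean was 0.09 ± 0.06 (adjusted p = 0.46). Kcns3 (Kv9.3), a subunit that is silent alone and modifies other potassium channels in rat pulmonary artery, ranged from -0.47 to 0.03 at the high dose (median -0.20) and from -0.43 to 0.04 at the low dose (median -0.18). It was below air in 7 of 9 samples of each dose and averaged -0.18 ± 0.06 at the high dose (adjusted p = 0.048) and -0.16 ± 0.06 at the low dose (adjusted p = 0.13). The delayed rectifier Kcna1 averaged 0.14 ± 0.06 at the high dose (adjusted p = 0.14) and -0.01 ± 0.06 at the low dose, and Kcnh6, a relative of the cardiac Kcnh2, -0.15 ± 0.06 at the high dose (adjusted p = 0.12) and -0.08 ± 0.05 at the low dose. The other 8 tested genes of the class had high-dose means between -0.07 and 0.13, and the untested Kcnh2 had means of -0.02 at the high dose and 0.01 at the low dose.

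Auxiliary subunits of potassium channels included Kcnab1, untested, whose high-dose mean was the highest of all members. This beta subunit, which speeds the inactivation of Kcna channels, had 8 values at the high dose with a lowest of 0.29, a median of 0.83 and a highest of 1.79. Its 5 low-dose values, all from 7 or 13 weeks, were 0.38, 0.86, 0.43, 0.49 and 0.37. All 13 values lay above air, and in the 5 pairs with both doses the high dose was the higher. Its means were 0.89 ± 0.44 (SD, n = 8) at the high dose and 0.51 ± 0.20 (SD, n = 5) at the low dose, 1.85 times air at the high dose and 1.42 times air at the low dose. With 5 pairs it fell short of the minimum for the test. When 4 combinations with both doses were enough, limma gave adjusted p = 0.00041 at the high dose and adjusted p = 0.0099 at the low dose, and 16.7% of all genes were then called at the high dose and 4.51% at the low dose. The high minus low difference did not pass there (0.39, adjusted p = 0.11). Most of the values that brought Kcnab1 into the set came from the high dose, where its mean was higher. Its p values hold only for the cells with a value, and why the other cells are empty is unknown. The related Kcnab2 and Kcnab3 averaged 0.04 ± 0.05 and -0.14 ± 0.07 at the high dose, and -0.01 ± 0.08 and -0.10 ± 0.07 at the low dose. Neither of those 2 passed.

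Kcne3 is a small subunit that holds the Kcnq1 channel open in secreting epithelia, including those of the airways. It ranged from -0.15 to 0.54 with a median of 0.31 at the high dose, against 0.00 to 0.60 with a median of 0.11 at the low dose. At the high dose 8 of 9 samples were above air, and at the low dose 8 were above and 1 was at air. The mean of 0.26 ± 0.06 passed at the high dose (limma adjusted p = 0.014) and that of 0.18 ± 0.06 did not at the low dose (adjusted p = 0.12). Its partner Kcnq1 averaged 0.10 ± 0.07 at the high dose and 0.06 ± 0.06 at the low dose and did not pass. The Kcnip genes, calcium-binding partners of Kcnd channels, had high-dose means between -0.05 and 0.06.

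**Figure D3:**
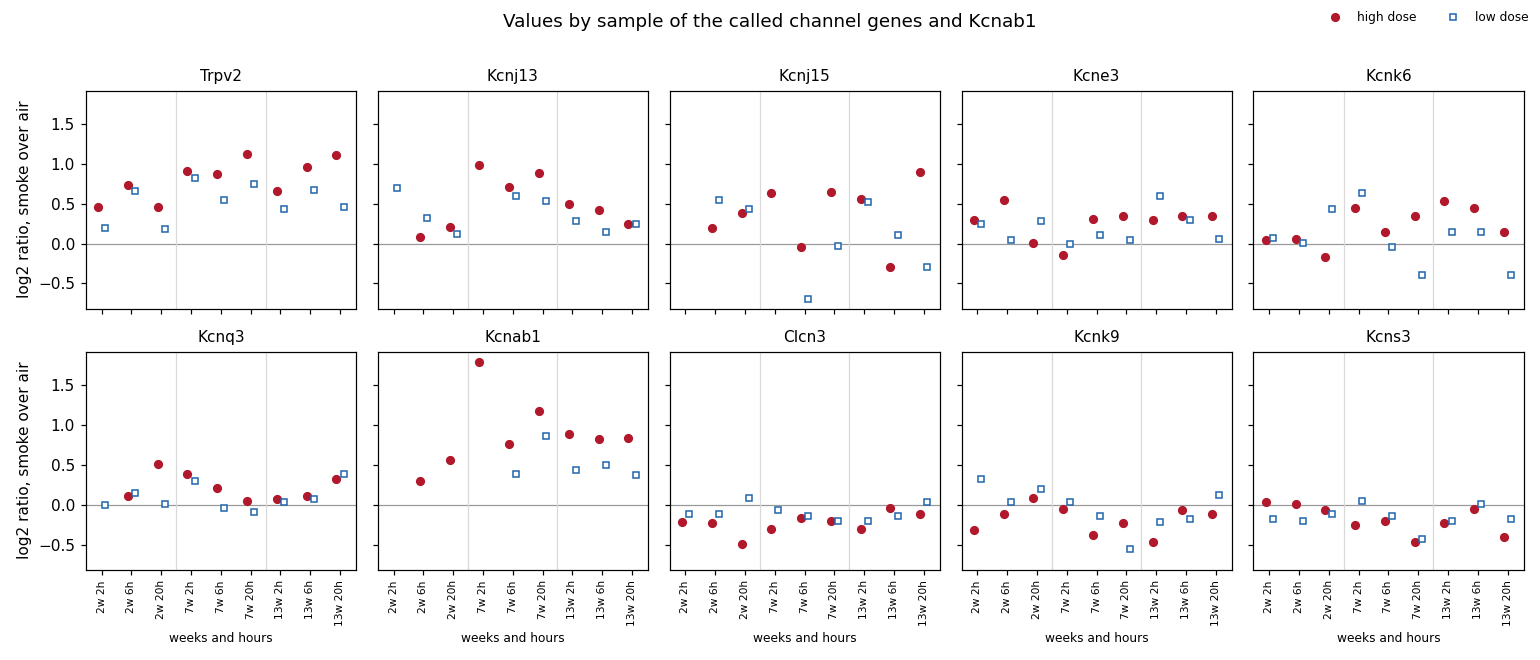
Log2 ratio of smoke over air in each sample for the 9 channel genes called at the high dose and for Kcnab1, with filled circles for the high dose and open squares for the low dose, over weeks (w) and hours (h). Trpv2, Kcnj13 and Kcnab1 lie above air wherever they have a value, and Clcn3 lies below air in every high-dose sample; missing points are empty cells.

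The Clcn family holds chloride channels and chloride-proton exchangers. Clcn3, an exchanger of endosomal membranes, had a lowest value of -0.49, a median of -0.22 and a highest of -0.04 at the high dose. At the low dose these were -0.20, -0.12 and 0.08. The high-dose samples were below air in 9 of 9, the low-dose samples in 7 of 9, and the ranges overlapped. The high-dose mean was -0.23 ± 0.05, or 0.85 times air (limma adjusted p = 0.0072), and the low-dose mean was -0.10 ± 0.05 (adjusted p = 0.31). Of the 42 members with all values, Clcn3 was the 1 below air in every high-dose sample, where 3.65% of all such genes were. Its promoter window is the one with 3 matches of GCGTG. Clcn7, the exchanger of lysosomes, averaged -0.13 ± 0.06 at the high dose (adjusted p = 0.16) and -0.13 ± 0.05 at the low dose (adjusted p = 0.15), and was below air in 9 of 9 low-dose samples. Clcn2, a chloride channel of epithelial membranes, averaged 0.12 ± 0.09 at the high dose (n = 7) and 0.17 ± 0.12 at the low dose (n = 8).

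The epithelial sodium channel absorbs sodium, and with it liquid, from airways and alveoli. None of its 3 subunits was called at either dose, where 17.2% of all genes were at the high dose and 4.96% at the low dose. Scnn1a ranged from -0.29 to 0.37 (median 0.03) at the high dose and from -0.14 to 0.32 (median 0.14) at the low dose, with a high-dose mean of 0.09 ± 0.07 and a low-dose mean of 0.10 ± 0.05. Scnn1b ranged from -0.51 to 0.24 (median -0.18) at the high dose and from -0.40 to 0.45 (median -0.15) at the low dose, with a high-dose mean of -0.16 ± 0.07 and a low-dose mean of -0.04 ± 0.09. Scnn1g ranged from -0.49 to 0.16 (median -0.04) at the high dose and from -0.43 to 0.23 (median -0.07) at the low dose, with a high-dose mean of -0.12 ± 0.07 and a low-dose mean of -0.07 ± 0.07. The values of each subunit lay on both sides of air at both doses, and the smallest adjusted p was 0.157, that of Scnn1b at the high dose.

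Voltage-gated sodium and calcium channel genes gave no call against air in the tests of each dose alone. Of all genes tested 17.2% were called at the high dose and 4.96% at the low dose. Scn1a, a sodium channel of nerve, averaged -0.16 ± 0.06 at the high dose (adjusted p = 0.097) and 0.03 ± 0.07 at the low dose. Scn2b, a sodium channel beta subunit, averaged 0.00 ± 0.07 at the high dose and 0.19 ± 0.06 at the low dose, where 8 of 8 values were above air (limma adjusted p = 0.091). Scn3a averaged 0.07 ± 0.07 at the high dose and 0.08 ± 0.09 at the low dose. Cacna2d1, the subunit that carries calcium channels to the membrane, averaged -0.20 ± 0.07 at the high dose (adjusted p = 0.057) and -0.13 ± 0.06 at the low dose. In 1 limma fit of all 18 samples, with the fresh-air pool as a random block, its high-dose mean passed (adjusted p = 0.029), where 17.5% of all genes did. The L-type alpha subunit Cacna1d averaged -0.14 ± 0.05 at the high dose (adjusted p = 0.075) and -0.02 ± 0.06 at the low dose. The other 9 tested auxiliary calcium channel genes had means between -0.09 and 0.04 at the high dose and between -0.16 and 0.11 at the low dose. Cacna1a of nerve endings averaged 0.06 ± 0.05 at the high dose and 0.24 ± 0.08 at the low dose (adjusted p = 0.12). Cacna1c, the L-type channel of heart and smooth muscle, was not tested, like Cacna1h (means of 0.06 at the high dose and -0.18 at the low dose) and Cacng1 (-0.17 at the high dose and 0.05 at the low dose). The 7 high-dose values of Cacna1c ran from -0.38 to 0.00 and its 6 low-dose values from -0.06 to 0.57, and in each of the 5 pairs with both doses the high dose was the lower. With 4 combinations enough, limma gave adjusted p = 0.13 for that difference. None of 3 smooth muscle, 7 cardiac and 7 neuronal markers tested passed at either dose.

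At the low dose Trpv2 and Kcnj13 rose and no member fell. These 2 of 57 are 3.51%, where 4.96% of all genes were called, 3.51% higher and 1.44% lower. Of the members 8 had an unadjusted p under 0.05 (770 of 4016 genes, 19.2%), and the exact sign-flip permutation test called 0 of all 3646 genes with every low-dose value, so it says nothing about the members. Both genes were also called at the high dose, but the doses share their fresh-air pools, so the low dose is no independent repeat. The members' median was 0.02, against 0.00 over all genes.

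**Figure D4:**
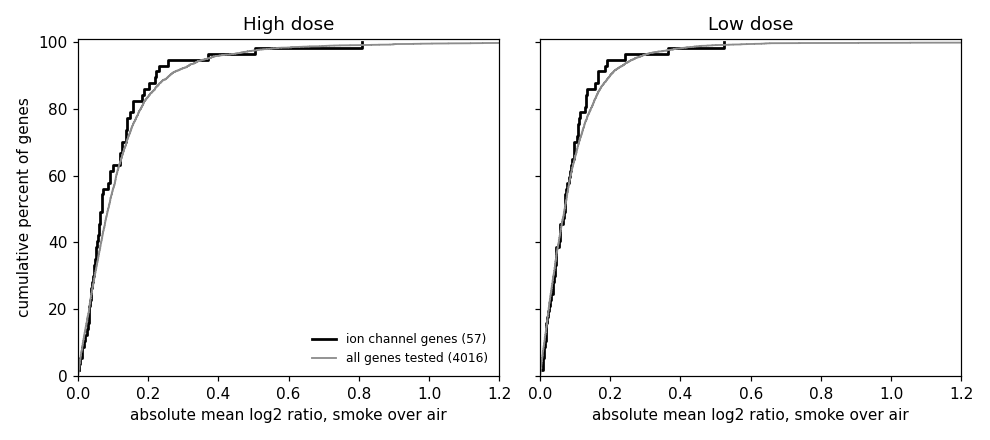
Cumulative percent of genes against the absolute mean log2 ratio at the high dose (left) and the low dose (right), for the 57 tested channel genes and all 4016 genes. The curves lie close to each other, and the last step of the channel curve in each panel is Trpv2.

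Between the doses no member was called. In the 9 pairs that share a fresh-air pool, 0 of 57 members passed limma, where 0.174% of all genes did, 0.149% higher and 0.0249% lower at the high dose. The unadjusted p was under 0.05 for Trpv2 and Scn1a, 2 members, and for 9.91% of all genes. The exact sign-flip permutation test called 0 of all 3560 genes with every value, so it says nothing about the members. Trpv2 was higher at the high dose by 0.29 ± 0.07 (n = 9 pairs, adjusted p = 0.086), in 9 of 9 pairs. Of genes with all values, 0.618% were higher in all 9 pairs, and Trpv2 was the 1 of 42 members. Scn1a was lower at the high dose by a log2 difference of -0.19 ± 0.09, in 7 of 9 pairs (adjusted p = 0.50). Kcnj13 was higher in 6 of 7 pairs by 0.12 ± 0.08 (adjusted p = 0.69), Clcn3 lower in 7 of 9 pairs by -0.13 ± 0.07 (adjusted p = 0.57) and Kcnj15 higher in 4 of 7 pairs by 0.25 ± 0.16 (adjusted p = 0.65). A change called at the high dose alone is thus not shown to differ from that at the low dose.

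Over the hours since exposure no member was called. The limma F test on the means of both doses passed for 0 of 56 members, where 1.6% of all genes passed. An unadjusted p under 0.05 was found for 9 members, or 16.1%, where 16.2% of all genes had one. Scnn1a averaged 0.21 at 2 hours, -0.10 at 6 hours and 0.16 at 20 hours (adjusted p = 0.23). For Kcnj15 and Clcn2 (adjusted p = 0.28 each) the only 2 hour combination with both doses was that of 13 weeks. At the high dose Kcnj15 averaged 0.595 at 2 hours (n = 2), -0.047 at 6 hours (n = 3) and 0.640 at 20 hours (n = 3). The receptor-operated channel Trpc5 averaged 0.26, -0.04 and -0.13. Cacng3, classed by its symbol alone with the auxiliary calcium channel genes, averaged -0.18, -0.07 and 0.14. Both had adjusted p = 0.22 in the limma F test. That was the smallest adjusted p of any member.

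Over the weeks of exposure no member was called either, of 56 tested, where 0.125% of all genes were. An unadjusted p under 0.05 was found for 7 members, or 12.5%, where 6.06% of all genes had one. Trpv2 averaged 0.45 at 2 weeks, 0.84 at 7 weeks and 0.72 at 13 weeks (adjusted p = 0.72). Kcnj13 averaged 0.18, 0.68 and 0.31 at the same weeks (adjusted p = 0.42), over 2, 2 and 3 combinations with both doses. Kcnj8 averaged 0.13, -0.28 and -0.14 (adjusted p = 0.69). The calcium channel beta subunit Cacnb2 had the smallest adjusted p, 0.31, with means of 0.18, -0.26 and -0.15. The difference between the doses gave 0 calls over hours and 0 over weeks, among members and among all genes, by the limma F test. An unadjusted p under 0.05 was found for 0 members over hours and 3 over weeks, against 3.58% and 4.68% of all genes.

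Other genes of channels and ion transport were read from a list chosen with earlier results known, 96 symbols of which 45 were on the array and 32 were tested. At the high dose 5 rose and 1 fell, with a median of 0.01, and at the low dose 1 rose. Of all genes tested, 9.56% were called higher and 7.64% lower at the high dose, and 3.51% higher at the low dose. The counts are small and no result about the list as a group. Atp1b1, a beta subunit of the sodium pump that drives epithelial sodium transport, rose at both doses, by 0.90 ± 0.09 at the high dose and 0.57 ± 0.10 at the low dose. Its relative Atp1b2 fell at the high dose (-0.22 ± 0.07) and stood at 0.05 ± 0.06 at the low dose. Besides Abcc9, the pump regulator Fxyd3 (0.34 ± 0.08), the mitochondrial outer membrane channel Vdac1 (0.23 ± 0.07) and the lysosomal cation channel Mcoln1 (0.22 ± 0.06) rose at the high dose.

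Over the whole table, a sample held values for 3919 to 4583 named genes and for 49 to 63 of the members. Precision is limited by how few arrays there are. Over the tested genes the SD of the log2 ratios in a sample was 0.207 to 0.353. This spread holds differences between genes as well as error, so it does not measure precision. All 6 alveolar epithelial markers on the array were measured, with 3 rises and 1 fall at the high dose and 3 rises at the low dose. Of 6 endothelial markers 3 fell and of 5 lymphocyte markers 5 fell at the high dose, against 0 and 1 at the low dose. Of 5 neutrophil and mast cell markers 2 rose and of 2 airway markers 1 rose at the high dose, against 1 and 0 at the low dose. Their part in the channel values was not tested.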

How the data were processed

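The authors deposited 1 table of log2 ratios, per the file headers with 11994 rows for 18 samples. Per the labels, smoke RNA carried Cy5 and air RNA Cy3, without a named dye swap, and each labelled sample was divided over 2 PIQOR arrays. No label names the scanner, background correction or normalization. Of 257 values under -1, 100% match the log2 of a ratio with 2 decimals. Sample medians lay between -0.01 and 0.01, and 12.9% of cells were empty. That a ratio means smoke over air is taken from the labels' channels.

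Each probe stands in the table as a pair of rows with equal values where both have one. The 5964 pairs were merged by position, and 6.51% of their values came from 1 row alone. Symbols came from GEO's platform annotation, probes of a gene were averaged, and all 63 members carry their current symbol. R 4.3.3 with limma 3.58.1 (lmFit, eBayes, two-sided) and statmod 1.5.0 tested the 9 log2 ratios at each dose against 0 and the 9 differences, high minus low. F tests over hours and over weeks, each with the other as a covariate, used the means of both doses in each of the 9 combinations. P values were adjusted over 4016 genes (3994 over time), and the fits were tested on simulated data. Samples were paired by their fresh-air pool, which the labels name. Alternatives changed the probe handling, centring, filter, prior, test and pairing, fitted all samples together with the pool as a random block, and left out combinations, weeks or hours. Python 3.11.15 (numpy 2.4.6, pandas 2.3.3) made the tables and matplotlib 3.10.9 the figures.

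The members, their classes and all lists were chosen with earlier results of these data known. Named are all called members, the 3 largest high-dose means of a class and 16 fixed symbols where present. Among other transport genes, called ones are named, up to 4 in each direction by high-dose mean, so that 1 of the 5 rises, Mcoln1, was named beyond this rule, as was the partner gene Abcc8. Members named for their values over time, at the low dose or as relatives of a named gene were chosen after their values were seen.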

Additional observations from a re-analysis of the deposited data

Results flagged for a closer look

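Of 126 groups, a group being the values of 1 member at 1 dose, 8 held a sample that stood far from the others by Dixon's criterion. Chance gives about 1 in 20 such groups. At the high dose, Cacnb2 stood at 0.77 and Kcnj11 at 0.42 in the sample of 2 weeks and 2 hours, where the next highest values were 0.20 and 0.12. Kcnq1 stood at 0.60 at 7 weeks and 2 hours, with 0.16 next. At the low dose, Kcnj8 stood at 0.65 at 2 weeks and 2 hours and Trpc5 at 0.81 at 7 weeks and 2 hours, with 0.07 and 0.08 next. Kcne3 stood at 0.60 and Scn3a at 0.82 at 13 weeks and 2 hours, with 0.29 and 0.26 next. Kcnab1 stood at 0.86 at 7 weeks and 20 hours, the highest of 5 values, with 0.49 next. In all 8 the sample was the highest of its group, and in 7 of the 8 it was a 2 hour sample. At each dose and length of exposure, the 2 hour sample also had the largest SD over all genes tested. At the low dose and 13 weeks this SD was 0.353 at 2 hours, 0.219 at 6 hours and 0.236 at 20 hours. The criterion was not run over all genes, so the 8 groups are no result about channel genes.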

How the results depend on the processing

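Against air at the high dose, 9 members were called. The exact sign-flip permutation test called 2 (Clcn3 and Trpv2), of 46 members with all high-dose values, where 8.57% of genes were called. Without the 2, 7 and 13 week samples limma called 4, 2 and 3 members. Of all 4016 genes it then called 550, 198 and 268, against 691 in the main fit. Leaving out the samples of 2, 6 or 20 hours, a choice made with the data seen, gave 3, 5 and 2 members. Of all genes 278, 552 and 398 were called there. Leaving out 1 combination at a time gave 4 to 9 members, and 498 to 679 of all genes. The member count was 5 without 7 weeks and 2 hours, 7 weeks and 20 hours or 13 weeks and 2 hours. It was 4 without 13 weeks and 20 hours. The calls of members thus fell along with those of all genes. In 1 fit of all 18 samples with the pool as a random block 7 were called, with Cacna2d1 (adjusted p = 0.029) and without Kcnj15, Kcnk6 and Kcnk9, where 17.5% of all genes were. Cacna2d1 was also called without the 6 hour samples (adjusted p = 0.021), without 7 weeks and 6 hours (0.021) and without 13 weeks and 6 hours (0.045), and Cacna1d without 7 weeks and 2 hours (0.039). Trpm8 was called with only genes that have every value (adjusted p = 0.049) and without 2 weeks and 20 hours (0.046). Trpv2 was called at the high dose in all 23 alternatives run for it, Kcnj13 in 20 of 21, Clcn3 in 19 of 23 and Kcne3 in 18 of 23. Kcnq3 was called in 11 of 21, Kcnk6 in 10 of 23, Kcnj15 in 9 of 21, and Kcnk9 and Kcns3 in 8 of 23 each. At the low dose 2 were called, 0 by the sign-flip test, which called 0 of all 3646 genes there, and 1 with only genes that have every value, without the 2, 7 or 13 week samples, and without the 2 or 6 hour samples. Leaving out 1 combination at a time gave 2 to 2. Kcnab1 entered where values at both doses in 4 combinations were enough, which gave 3 low-dose calls, where 4.51% of all genes were called. Kcnab1 had 8 high-dose and 5 low-dose values, and its p values hold only for those cells. Between the doses, with the pairing by fresh-air pool or with no replicate block, 0 members were called, and Trpv2 had adjusted p = 0.77 without the block. Hours and weeks gave 0 calls under every alternative run. No direction of a called member turned in any alternative, and the causes of lost calls were not tested. Empty cells, more frequent at the low dose, leave fewer values there, but within the 63 members the gap was small (540 high-dose and 529 low-dose values). Signal over background is unknown.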
